A study of Homo sapiens with 8 samples.

Results

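The MYC, MAX and MXD network was examined in bulk RNA-seq of 2 human acute myeloid leukemia (AML) lines, Molm13 and THP1. Both lines are known as monocytic and as carriers of MLL fusions, which was not checked in these libraries. It comprises 10 genes that were chosen by name, MYC, MAX, MXD1, MXD3, MXD4, MXI1, MNT, MGA, MLX and MLXIP, out of 57722 genes listed for both lines, and all 10 were expressed highly enough to be tested in each line. Cells received a control shRNA (shCtrl, labeled WT) or an shRNA against PRMT9 (shPRMT9, labeled as PRMT9 knockdown, KD), an arginine methyltransferase, and both kinds of cells were treated with doxycycline (Dox), which switches the hairpin on. There were 2 libraries per group. The numbers 1 and 2 in the shPRMT9 labels were taken to mark replicates, although the study also numbers its PRMT9 hairpins in this way, so that the spread within a KD group may be that between different hairpins. Nothing in the sources used here says that libraries of a group came from separate cultures, so the p-values measure the spread between these libraries, which may be technical. The length of induction for these libraries is not given in the sources used here.

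MYC is a transcription factor that drives growth and division and is a frequent oncogene in blood cancers. It binds DNA only as a pair with MAX, at the E-box CACGTG, and recruits histone acetyltransferases there. The MXD proteins and MNT compete with MYC for MAX and bring the SIN3 corepressor and histone deacetylases to the same sites. Levels of some of them, such as MXD1, commonly rise as myeloid cells stop dividing and mature. MGA also pairs with MAX, inside a Polycomb complex that silences germline genes. MLX pairs with MondoA (encoded by MLXIP), which senses glucose-derived metabolites and turns on TXNIP, and can also pair with some MXD proteins and MNT.

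After PRMT9 KD, MYC RNA fell in both lines (log2 fold changes of -0.38 and -0.34), whereas MXI1 and MXD4, which encode 2 of its 4 MXD antagonists, rose in Molm13 and fell in THP1. MXI1 was 2.47-fold higher in Molm13 and 0.623-fold of the control in THP1. MXD1 rose in both lines, MNT and MLX fell in both, and MAX did not pass the test in either. In Molm13, 4 of the 10 genes were higher (MXI1, MXD4, MXD1 and MLXIP) and 4 were lower (MYC, MNT, MLX and MGA) at a false discovery rate (FDR) below 0.05 by the quasi-likelihood test of edgeR, adjusted over all genes by Benjamini-Hochberg. Among all 16446 genes tested in Molm13, 33.4% were higher and 33.6% lower. In THP1, 1 of the 10 was higher (MXD1) and 6 were lower (MYC, MXD3, MXD4, MXI1, MNT and MLX), against 19.1% higher and 18.6% lower among 16294 genes.

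The stricter rule for differentially expressed genes (DEGs) also required a fold change above 1.5 in either direction and an RPKM (reads scaled to exon length and to library size) above 1 in at least 1 library. By this rule 3 of the 10 were DEGs in Molm13 (MXI1 and MXD4 higher, MLX lower), where 22.8% of all genes were, and 1 of the 10 was a DEG in THP1 (MXI1, lower), where 6.23% of all genes were. The shCtrl and shPRMT9 libraries did not overlap for 9 of the 10 in Molm13 and 8 of the 10 in THP1. Over all genes tested, the groups did not overlap for 81.9% in Molm13 and 66% in THP1. For these 10 the median log2 fold change stood at -0.02 (Molm13) and -0.27 (THP1), beside medians of 6.9e-05 and -6.8e-04 over all genes.

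Library totals ranged from 18720950 to 27356870 counts, and the scaling factors from 0.989 to 1.017. PRMT9 itself, the targeted gene, had 332 and 289 counts in Molm13 shCtrl and 41 and 56 in shPRMT9, and 317 and 352 counts in THP1 shCtrl and 60 and 68 in shPRMT9. All 4 libraries labeled as KD were thus below all controls of their line. The summed level of 11 markers of monocytic AML, in CPM (counts scaled to a common library size), was 1417 to 1419 in Molm13 shCtrl and 2148 to 2177 in shPRMT9, and 2192 to 2218 in THP1 shCtrl and 3440 to 3581 in shPRMT9. LYZ (lysozyme) was the largest part of this sum, with 12423 and 12927 counts in Molm13 shCtrl and 18623 and 21516 in shPRMT9, and 48446 and 52233 in THP1 shCtrl and 74633 and 79446 in shPRMT9. Of the 10 markers tested in each line, 8 rose and 2 fell (MPO and FCGR1A) in Molm13, and 6 rose and 2 fell (MPO and FLT3) in THP1. Of all genes, 33.4% rose and 33.6% fell in Molm13, and 19.1% rose and 18.6% fell in THP1. CD14, a marker of mature monocytes, was below 1 CPM in Molm13 and in THP1 shCtrl. It rose in THP1, from 24 and 24 counts in shCtrl to 116 and 122 in shPRMT9. MEIS1, a gene commonly active in MLL-rearranged AML, was below 1 CPM in THP1. In THP1, the library names contain the letters OCI as well. The line was taken from the sample labels, and the identity of these libraries was not tested. Among B-cell markers, PAX5 had 741 to 866 counts in Molm13, 64 and 86 counts in THP1 shCtrl and 298 and 276 counts in THP1 shPRMT9, MS4A1 and CD79A were below 1 CPM in every group, and markers of T cells, erythroid cells and fibroblasts summed to at most 1.91 CPM. The part of these marker levels in the results below was not tested. In bulk libraries, a change in the mix of cell states and a change in RNA per cell cannot be told apart.

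Promoter stretches are shown only from windows that held an E-box or a hypoxia core (both given below) outside the gene's own exons. Of the genes with such a window, 4 are shown, which moved in opposite directions in the lines (MXD4 and MXI1) or fell in both (MLX and MNT). These stretches thus hold the marked letters by selection. They come from RefSeq (build GRCh38.p14), are written 5′ to 3′ on the gene's strand, and exclude the gene's own exons in GENCODE release 29. Capitals mark the E-box, CACGTG, to which the network's proteins bind, or, in MXI1, CACGT, the reverse complement of ACGTG, the core letters of the hypoxia response element (HRE). An E-box always contains the HRE core on both strands.
MXD4, chr4:2262295-2262359, minus strand: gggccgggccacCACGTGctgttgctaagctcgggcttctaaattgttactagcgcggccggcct
MXI1, chr10:110209981-110210230, plus strand: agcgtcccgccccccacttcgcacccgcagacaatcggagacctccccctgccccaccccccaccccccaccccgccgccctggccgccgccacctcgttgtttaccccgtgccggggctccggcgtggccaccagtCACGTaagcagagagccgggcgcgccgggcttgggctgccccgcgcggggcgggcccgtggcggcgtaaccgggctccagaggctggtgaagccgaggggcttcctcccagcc
MLX, chr17:42566850-42567067, plus strand: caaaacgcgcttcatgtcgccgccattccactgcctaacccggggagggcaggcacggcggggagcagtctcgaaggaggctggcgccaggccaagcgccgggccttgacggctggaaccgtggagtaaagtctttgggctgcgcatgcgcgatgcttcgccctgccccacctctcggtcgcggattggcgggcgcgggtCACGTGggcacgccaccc
MNT, chr17:2401119-2401310, minus strand: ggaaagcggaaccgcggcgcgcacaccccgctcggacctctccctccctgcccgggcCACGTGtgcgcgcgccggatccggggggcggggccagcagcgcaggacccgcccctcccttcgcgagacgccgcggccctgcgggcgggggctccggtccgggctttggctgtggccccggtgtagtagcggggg

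Over 14 windows of 250 bases upstream of the RefSeq starts of 9 of the genes (MYC was not searched), an E-box was found in 3 windows, of MXD4, MNT and MLX, starting 238, 193 and 50 bases before the start. Of all 35116 promoter windows of the same length, 6.34% held an E-box. The HRE core, searched on both strands, was found in 6 windows, of 6 genes (those 3, MAX, MGA and MXI1), and in 18.5% of all windows. In MXI1 it lay in 1 of 3 windows, 113 bases before the second start. The matches describe these letters in these windows only, and no binding was measured.

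MYC and MAX form the activating pair. MYC (ENSG00000136997, chromosome 8, 127735434 to 127741434 on GRCh38) was the most abundant of the 10 per exon length in every group. It stood at 479 and 488 CPM in Molm13 shCtrl and at 366 and 376 CPM in shPRMT9. In THP1 it stood at 252 and 243 CPM in shCtrl and at 192 and 198 CPM in shPRMT9. Both KD libraries were below both controls in each line. The log2 fold change was -0.38 in Molm13 (SE 0.025, edgeR adjusted p = 1.9e-17) and -0.34 in THP1 (SE 0.035, edgeR adjusted p = 3.6e-09). The effect in THP1 minus that in Molm13 was 0.05 on the log2 scale (95% interval, -0.03 to 0.14, edgeR adjusted p = 0.36), and the sign of this difference turned in 4 of the 8 fits that left out 1 library (lowest value -0.0078).

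MAX (ENSG00000125952, chromosome 14, 65006174 to 65102695), the obligate partner of MYC and of its antagonists, showed 36.8 and 37.5 CPM in Molm13 shCtrl and 36.5 and 33.9 CPM in shPRMT9. Its levels in THP1 were 83.4 and 84.4 CPM in shCtrl and 82.9 and 87.1 CPM in shPRMT9. The groups nearly touched in Molm13, where KD library 1 lay just below the controls, and overlapped in THP1. The log2 fold change of MAX was -0.08 in Molm13 (edgeR adjusted p = 0.22) and 0.02 in THP1 (edgeR adjusted p = 0.78), with 95% intervals of -0.20 to 0.04 and -0.07 to 0.11. Scaling by library size alone turned the sign of the THP1 value to -0.0085.

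**Figure D1:**
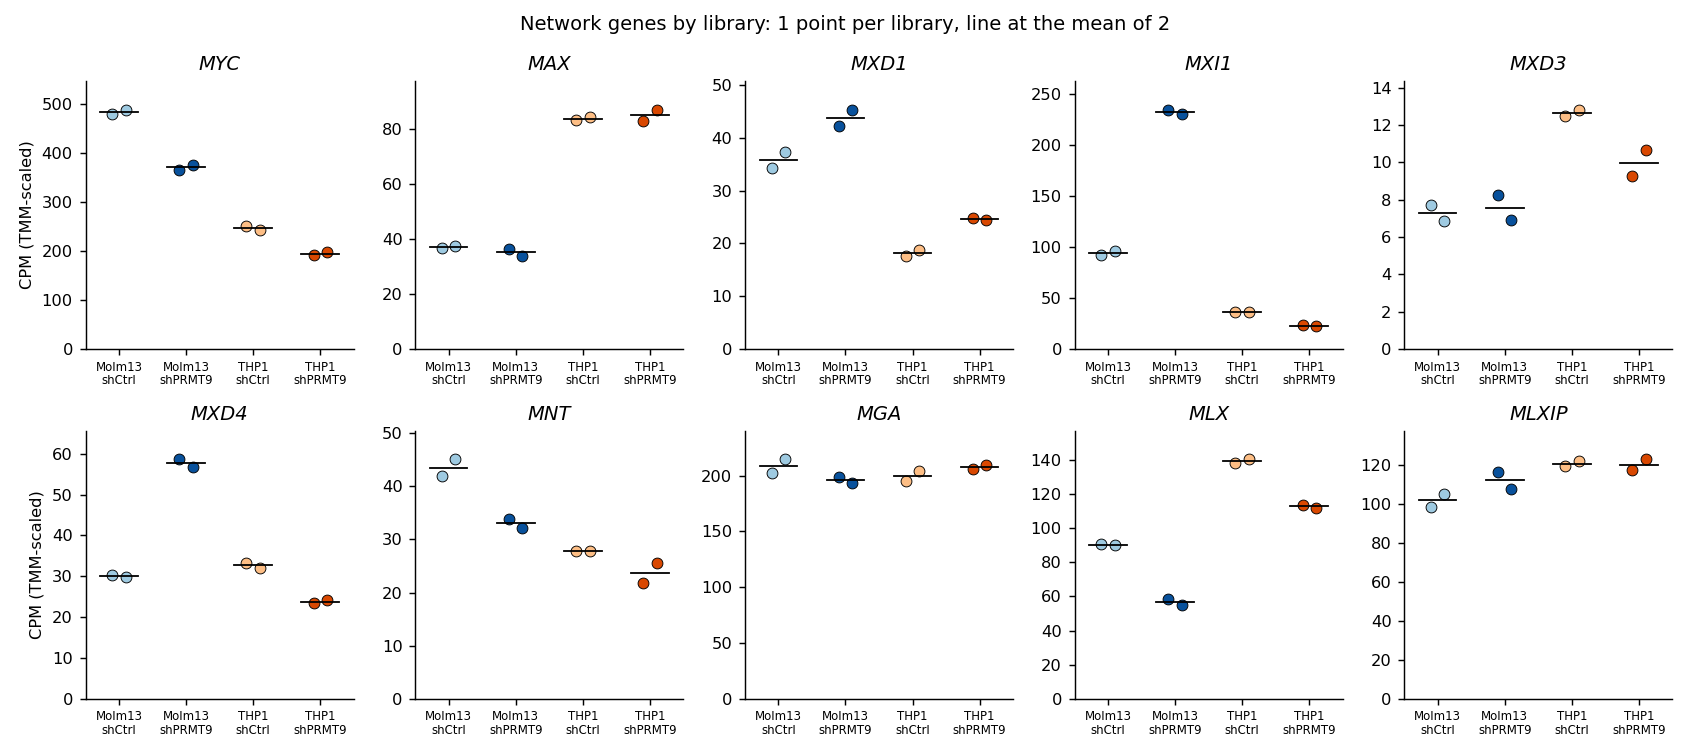
CPM (linear axes from 0, each with its own range) of the 10 network genes in the 8 libraries, with 1 point per library and a line at the mean of 2. MXI1 and MXD4 are higher in Molm13 shPRMT9 than in shCtrl and lower in THP1 shPRMT9 than in shCtrl, while MYC is lower in shPRMT9 of both lines.

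The 4 MXD genes encode MAX partners that repress. MXI1 (also called MXD2, ENSG00000119950, chromosome 10, 110207605 to 110287365) stood at 92.3 and 96.2 CPM in Molm13 shCtrl and at 235 and 231 CPM in shPRMT9. In THP1, it stood at 36.4 and 36.5 CPM in shCtrl and at 23.2 and 22.2 CPM in shPRMT9. The libraries of the 2 groups were far apart in Molm13, and in THP1 they were separated in the opposite direction. Its log2 fold change was 1.31 in Molm13 (SE 0.034, edgeR adjusted p = 6.4e-32) and -0.68 in THP1 (SE 0.064, edgeR adjusted p = 8.2e-10). The difference between the lines, -1.98 (SE 0.070, edgeR adjusted p = 4.2e-27), was the largest of the 10.

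MXD4 (ENSG00000123933, chromosome 4, 2247432 to 2262294) had 30.3 and 29.8 CPM in Molm13 shCtrl and 58.6 and 56.9 CPM in shPRMT9. In THP1 it had 33.3 and 32.0 CPM in shCtrl and 23.4 and 24.1 CPM in shPRMT9. The controls of the 2 lines thus held similar levels, and the KD libraries moved away from them in opposite directions. On the log2 scale the fold change was 0.94 in Molm13 (SE 0.055, edgeR adjusted p = 2.2e-19) and -0.46 in THP1 (SE 0.065, edgeR adjusted p = 1.7e-06), and the difference was -1.38 (SE 0.085, edgeR adjusted p = 1.2e-18). MXI1 and MXD4 were 2 of the 10 genes called in both lines in opposite directions, against 11.4% of the 13476 genes tested in both. MXI1 was 1 of the 10 that met the DEG rule in both lines in opposite directions, against 0.445%.

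MXD1 (MAD1, ENSG00000059728, chromosome 2, 69897688 to 69942945), which is induced as myeloid cells differentiate, rose in both lines. It had 34.2 and 37.3 CPM in Molm13 shCtrl and 42.2 and 45.4 CPM in shPRMT9, and in THP1 17.7 and 18.8 CPM in shCtrl and 24.8 and 24.4 CPM in shPRMT9. No KD library overlapped a control of its line. The log2 fold change was 0.30 in Molm13 (SE 0.058, edgeR adjusted p = 2e-05) and 0.43 in THP1 (SE 0.073, edgeR adjusted p = 2.4e-05). The difference of 0.14 between the lines did not pass (95% interval, -0.05 to 0.34, edgeR adjusted p = 0.25). Of the monocytic AML markers, LYZ, ITGAM, CSF1R, CD33 and HOXA9 rose in both lines as well, whereas MPO fell in both (log2 fold changes of -0.56 and -0.82), FCGR1A fell in Molm13 (-0.44) and FLT3 fell in THP1 (-0.16). Their part in the rise of MXD1 was not tested.

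MXD3 (ENSG00000213347, chromosome 5, 177301461 to 177312757), the member of the family linked to dividing cells, was the least abundant. It had 7.69 and 6.85 CPM in Molm13 shCtrl and 8.24 and 6.91 CPM in shPRMT9, which overlapped, and in THP1 12.5 and 12.8 CPM in shCtrl and 9.26 and 10.6 CPM in shPRMT9, which did not. Its log2 fold change was 0.05 in Molm13 (95% interval, -0.21 to 0.31, edgeR adjusted p = 0.75) and -0.35 in THP1 (SE 0.10, edgeR adjusted p = 0.0064). The call in THP1 rested on shPRMT9 library 1: without it the value was -0.25 (edgeR adjusted p = 0.1). DESeq2 gave an adjusted p of 0.078. The difference between the lines was -0.38 (edgeR adjusted p = 0.059), and it passed under both other scalings tried (-0.41 and -0.43).

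Per exon length, MXI1 was the most abundant of the MXD genes in every group. The 4 MXD genes summed to 31.2 and 32.3 RPKM in Molm13 shCtrl and to 67.6 and 66.7 RPKM in shPRMT9, and in THP1 to 17.8 and 17.9 RPKM in shCtrl and to 14.1 and 14.1 RPKM in shPRMT9. MXI1 made up 64.4% of that sum in Molm13 shCtrl (mean of 2) and 75.3% in shPRMT9, and 44.3% and 35.0% in the THP1 groups. The ratio of MYC to summed MXD RPKM was 5.12 and 5.04 in Molm13 shCtrl and 1.81 and 1.88 in shPRMT9. In THP1 the same ratio was 4.70 and 4.53 in shCtrl and 4.54 and 4.66 in shPRMT9, which overlapped. The ratio of MYC to MAX RPKM was 19.2 ± 0.00424 (s.d., n = 2) in Molm13 shCtrl and 15.6 ± 1.09 in shPRMT9, and 4.35 ± 0.146 and 3.38 ± 0.0426 in the THP1 groups. These sums and ratios are descriptions of RNA levels without a test.

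**Figure D2:**
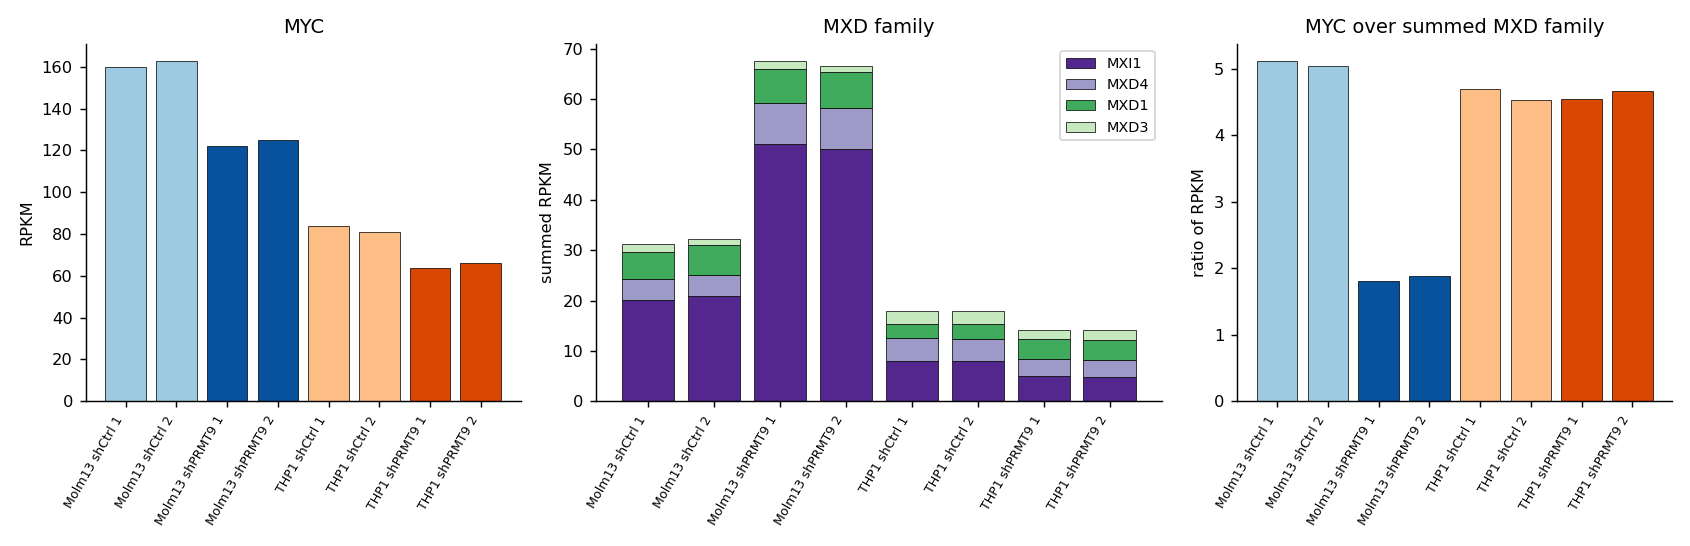
RPKM per library (linear axes from 0) of MYC, of the 4 MXD genes stacked, and the ratio of MYC to the MXD sum. The ratio is 5.04 to 5.12 in Molm13 shCtrl and 1.81 to 1.88 in Molm13 shPRMT9, and 4.53 to 4.70 over the 4 THP1 libraries.

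MNT and MGA are the larger MAX partners. MNT (ENSG00000070444, chromosome 17, 2384060 to 2401118), a broadly expressed repressor that antagonizes MYC in resting and dividing cells, had 42 and 45.1 CPM in Molm13 shCtrl and 33.9 and 32.2 CPM in shPRMT9. Its THP1 levels were 27.8 and 27.8 CPM in shCtrl and 21.8 and 25.5 CPM in shPRMT9. The groups did not overlap in either line, although the 2 THP1 KD libraries were further apart than the controls. The log2 fold change was -0.40 in Molm13 (SE 0.058, edgeR adjusted p = 7.9e-08) and -0.23 in THP1 (SE 0.073, edgeR adjusted p = 0.011). The THP1 call was lost without shPRMT9 library 1 (-0.12, edgeR adjusted p = 0.26) and with DESeq2 (adjusted p = 0.092). The difference of 0.18 between the lines did not pass (95% interval, -0.01 to 0.37, edgeR adjusted p = 0.14), but it did without that THP1 library (0.26, edgeR adjusted p = 0.033).

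MGA (ENSG00000174197, chromosome 15, 41621224 to 41773081) showed 202.4 and 214.5 CPM in Molm13 shCtrl and 198.8 and 193 CPM in shPRMT9, and in THP1 195.4 and 203.7 CPM in shCtrl and 205.6 and 209.3 CPM in shPRMT9. The KD libraries were below the controls in Molm13 and above them in THP1, by small margins in both. The log2 fold change of MGA was -0.09 in Molm13 (SE 0.032, edgeR adjusted p = 0.012) and 0.06 in THP1 (edgeR adjusted p = 0.24), and the difference was 0.16 (SE 0.048, edgeR adjusted p = 0.0056). The Molm13 call was lost without shCtrl library 2 (-0.05, edgeR adjusted p = 0.26), without shPRMT9 library 2 (-0.06, edgeR adjusted p = 0.18) and with DESeq2 (adjusted p = 0.098). The call of the difference was lost without Molm13 shCtrl library 2 (edgeR adjusted p = 0.3), Molm13 shPRMT9 library 2 (0.21), THP1 shCtrl library 1 (0.22) or THP1 shPRMT9 library 2 (0.11).

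MLX and MLXIP form the glucose-sensing arm. MLX (ENSG00000108788, chromosome 17, 42567068 to 42573239) had 90.8 and 90.0 CPM in Molm13 shCtrl and 58.4 and 54.8 CPM in shPRMT9. In THP1 it had 138.5 and 140.5 CPM in shCtrl and 113.7 and 112.1 CPM in shPRMT9. The replicates lay close together and the groups were clearly separated in both lines. The log2 fold change was -0.68 in Molm13 (SE 0.044, edgeR adjusted p = 1.1e-17) and -0.31 in THP1 (SE 0.039, edgeR adjusted p = 2.1e-07). The fall was larger in Molm13, with a difference of 0.39 (SE 0.059, edgeR adjusted p = 3.4e-07).

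MLXIP (MondoA, ENSG00000175727, chromosome 12, 122078722 to 122147347) had 98.5 and 105.3 CPM in Molm13 shCtrl and 116.4 and 108.1 CPM in shPRMT9, and in THP1 119.8 and 122 CPM in shCtrl and 117.4 and 123 CPM in shPRMT9. The groups were narrowly separated in Molm13 and overlapped in THP1. On the log2 scale the fold change was 0.14 in Molm13 (SE 0.040, edgeR adjusted p = 0.0027) and -0.0085 in THP1 (95% interval, -0.09 to 0.07, edgeR adjusted p = 0.89). The Molm13 call was lost without shCtrl library 1 (0.08, edgeR adjusted p = 0.1), without shPRMT9 library 1 (0.10, edgeR adjusted p = 0.068) and with DESeq2 (adjusted p = 0.055). The difference between the lines was -0.13 (edgeR adjusted p = 0.06) and passed under both other scalings tried (-0.16 and -0.18).

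Over the 10 genes, the effect of PRMT9 KD differed between the lines for 4 (MXI1, MXD4, MLX and MGA), against 41.4% of the 19288 genes in the fit of all 8 libraries. The median difference was 0.08 for the 10 genes and 0.03 for all genes.

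**Figure D3:**
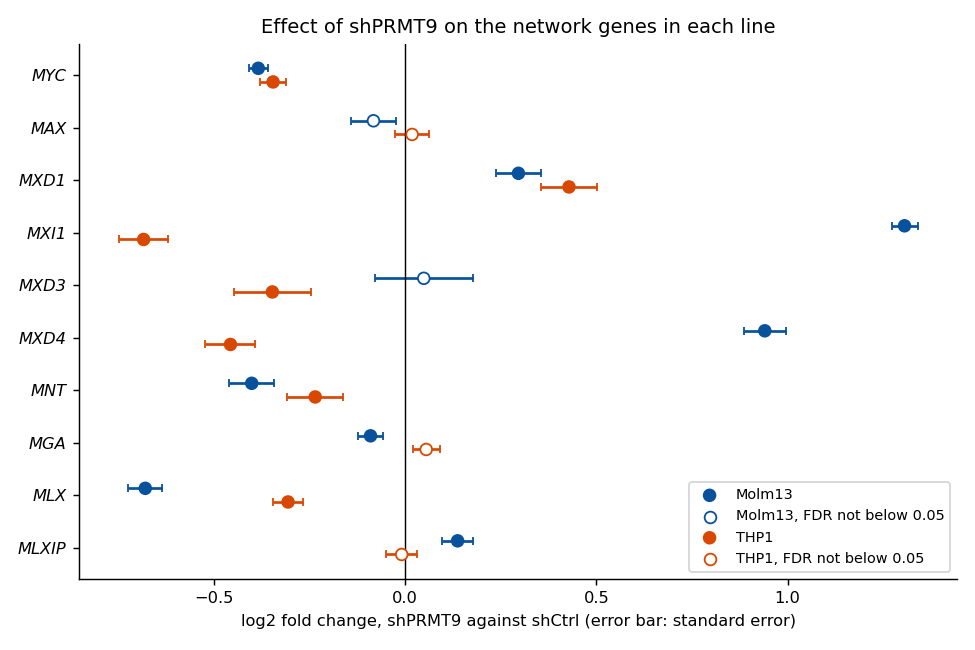
Log2 fold change of shPRMT9 against shCtrl with its standard error, for the 10 network genes in Molm13 and THP1, with open points where the edgeR FDR was not below 0.05. MXI1 lies at 1.31 in Molm13 and -0.68 in THP1, and MYC at -0.38 and -0.34.

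In order of RPKM, MYC led every group (161.2 ± 2.14, s.d., in Molm13 shCtrl, 123.6 ± 2.24 in shPRMT9, 82.4 ± 2.03 in THP1 shCtrl and 64.9 ± 1.43 in shPRMT9). Below MYC in Molm13 shCtrl came MLX (21.2), MXI1 (20.5), MGA (11.8), MAX (8.39), MLXIP (7.33), MXD1 (5.63), MNT (4.99), MXD4 (4.26) and MXD3 (1.41). In Molm13 shPRMT9, MXI1 (50.6) stood above MLX (13.3) and MGA (11.1), and MXD4 (8.18), MLXIP (8.07) and MAX (7.94) followed with overlapping libraries. MLX (32.8), MAX (18.9), MGA (11.3), MLXIP (8.69) and MXI1 (7.91) followed MYC in THP1 shCtrl, and the same 5 genes followed in the same order in THP1 shPRMT9. All other neighbours in the order had libraries that did not overlap, with n = 2 each.

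Several of the genes share exonic positions with a neighbour, and whether the counting used strand is not given in the sources used here. PSMC3IP, on the opposite strand of MLX, had 374 and 336 counts in Molm13 shCtrl, 154 and 165 in shPRMT9, 698 and 819 in THP1 shCtrl, and 663 and 663 in shPRMT9. It was thus lower in the Molm13 KD libraries, as MLX was, and how far reads are shared between the pair was not tested. RAB24, on the same strand as MXD3, had 139 and 153 counts in Molm13 shCtrl and 265 and 342 in shPRMT9. In THP1, where MXD3 was called lower, RAB24 had 86 and 96 counts in shCtrl and 95 and 80 in shPRMT9. PRELID1, which overlaps MXD3 on the other strand, had 1450 to 1733 counts in Molm13 and 4089 to 4589 in THP1. SNRNP27 shares exonic positions with MXD1 on the same strand and had 462 and 470 counts in Molm13 shCtrl and 424 and 521 in shPRMT9. It had 738 and 773 counts in THP1 shCtrl and 650 and 545 in shPRMT9, while MXD1 rose in both lines. The antisense transcripts overlapping exons of MXI1 (RP11-549L6.3), MNT (RP1-59D14.1), MAX (RP11-840I19.3) and MGA (RP11-107F6.3) had at most 9 counts in any library. FNTB, CHURC1-FNTB and MIR4706 lie in the span of MAX, RP11-549L6.2 in that of MXI1, and MIR626 and RP11-107F6.4 in that of MGA, without sharing exonic positions, and AC019206.1, in the span of MXD1, was not compared further.

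Of the other genes of the network's families, MYCN had 0 counts in all 8 libraries. MYCL, a MYC paralog, had 139 to 155 counts in Molm13, and in THP1 1174 and 1288 counts in shCtrl and 1363 and 1360 counts in shPRMT9. It had a log2 fold change of -0.09 in Molm13 (edgeR adjusted p = 0.56) and 0.24 in THP1 (SE 0.051, edgeR adjusted p = 0.00038). MLXIPL (ChREBP), a MondoA paralog, had at most 3 counts in Molm13, where it was not tested, and 158 to 207 counts in THP1, where its log2 fold change was -0.07 (edgeR adjusted p = 0.73).

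Genes that MYC is known to raise were mostly lower in Molm13 KD. Of 41 such genes (ribosome biogenesis, nucleotide and polyamine synthesis, cell cycle, chaperones and amino acid transporters), 3 rose, 36 fell and 2 were not called in Molm13, and the median log2 fold change was -0.48. The share that fell was 87.8%, beside 33.6% of all genes. In THP1, 40 were tested, and 9 rose, 7 fell and 24 were not called, with a median of -0.0074, beside medians near 0 over all genes in both lines. There, 22.5% rose and 17.5% fell, shares near the 19.1% and 18.6% of all genes. The difference between the lines passed for 37 of the 41, against 41.4% of the 19288 genes in the fit of all 8 libraries. Values below are log2 fold changes ± SE. CDC25A, a phosphatase that opens the way to DNA replication, was at -1.50 ± 0.057 in Molm13 and 0.05 ± 0.042 in THP1. The amino acid transporter gene SLC7A5 was at -0.999 ± 0.028 in Molm13 and 0.06 ± 0.034 in THP1. ODC1, the first enzyme of polyamine synthesis, fell in both lines (-0.94 ± 0.031 and -0.39 ± 0.033), as did TERT, the catalytic part of telomerase (-0.36 ± 0.079 and -1.47 ± 0.13). APEX1, a DNA repair endonuclease, rose in Molm13 (0.26 ± 0.025).

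Of the 40 genes tested in both lines, 8 were called in opposite directions, against 11.4% of all genes tested in both. The nucleolar genes NOP58, NOLC1 and PES1, the purine synthesis gene GART, SHMT2 of mitochondrial one-carbon metabolism, the nucleoside diphosphate kinase NME1 and the lactate transporter SLC16A1 fell in Molm13 (-0.24 to -0.61) and rose in THP1 (0.10 to 0.29). PTMA (prothymosin alpha) rose in Molm13 (0.18 ± 0.024) and fell in THP1 (-0.20 ± 0.029). MYC RNA fell in both lines, and MXI1 and MXD4 RNA moved in opposite directions. Their part in these changes was not tested.

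Glycolysis genes that are targets of both MYC and hypoxia-inducible factor (HIF) moved the other way in Molm13. All 7 rose there, with a median of 0.64, and in THP1, 3 rose, 2 fell and 2 were not called, with a median of 0.05. Of all genes, 33.4% rose in Molm13, and 19.1% rose and 18.6% fell in THP1. The glucose transporter gene SLC2A1 rose in Molm13 (0.85 ± 0.050) and fell in THP1 (-0.27 ± 0.039), and the hexokinase gene HK2 did the same (0.69 ± 0.036 and -0.27 ± 0.047). ALDOA, an aldolase, rose in Molm13 (0.82 ± 0.020) and stood at 0.05 ± 0.028 in THP1. LDHA, which makes lactate, rose in both lines (0.64 ± 0.021 and 0.16 ± 0.028), as did PKM, a pyruvate kinase (0.42 ± 0.022 and 0.69 ± 0.029).

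Of 9 genes that MYC is known to lower, 7 were tested in each line. In Molm13, 5 rose and 2 were not called, with a median of 0.72, and in THP1, 4 rose, 1 fell and 2 were not called, with a median of 0.54. The shares that rose were 71.4% and 57.1%, beside 33.4% and 19.1% of all genes. NDRG1, a stress and differentiation gene that hypoxia also induces, rose in both lines (3.03 ± 0.039 and 0.78 ± 0.041). The cell cycle inhibitor genes were unequal: CDKN1A (p21) rose in both lines (0.65 ± 0.027 and 1.29 ± 0.11), while CDKN1C (p57) rose in Molm13 (3.39 ± 0.43) and stood at -0.16 ± 0.26 in THP1. PDGFRB, a growth factor receptor, rose in both (1.97 ± 0.51 and 1.15 ± 0.34). Counts of these 2 genes were low. CDKN1C had 4 and 3 counts in Molm13 shCtrl and 39 and 37 in shPRMT9. PDGFRB had 3 and 5 counts in Molm13 shCtrl and 15 and 17 in shPRMT9, and in THP1 17 and 15 in shCtrl and 28 and 39 in shPRMT9. Neither CDKN1C nor PDGFRB met the DEG rule in either line. GADD45A, a DNA damage response gene, stood at 0.21 ± 0.10 in Molm13 and fell in THP1 (-0.64 ± 0.18).

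Of 4 targets of MondoA and MLX, 3 rose in Molm13 (median 0.18) and 4 in THP1 (median 0.32), while MLX RNA fell in both lines. Of all genes, 33.4% rose in Molm13 and 19.1% in THP1, and a list of 4 is small for such a comparison. TXNIP, which restrains glucose uptake and is the best known target of the pair, rose in both lines (1.57 ± 0.024 and 0.43 ± 0.034), with a difference of -1.12 (edgeR adjusted p = 5e-27). KLF10, a repressor that the pair also controls, rose in both lines (0.25 ± 0.064 and 0.23 ± 0.057). ARRDC4, a relative of TXNIP, rose in THP1 (0.41 ± 0.060) and stood at 0.10 ± 0.093 in Molm13, and PFKFB3, a regulator of glycolysis, rose in both (0.12 ± 0.049 and 0.18 ± 0.059).

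**Figure D4:**
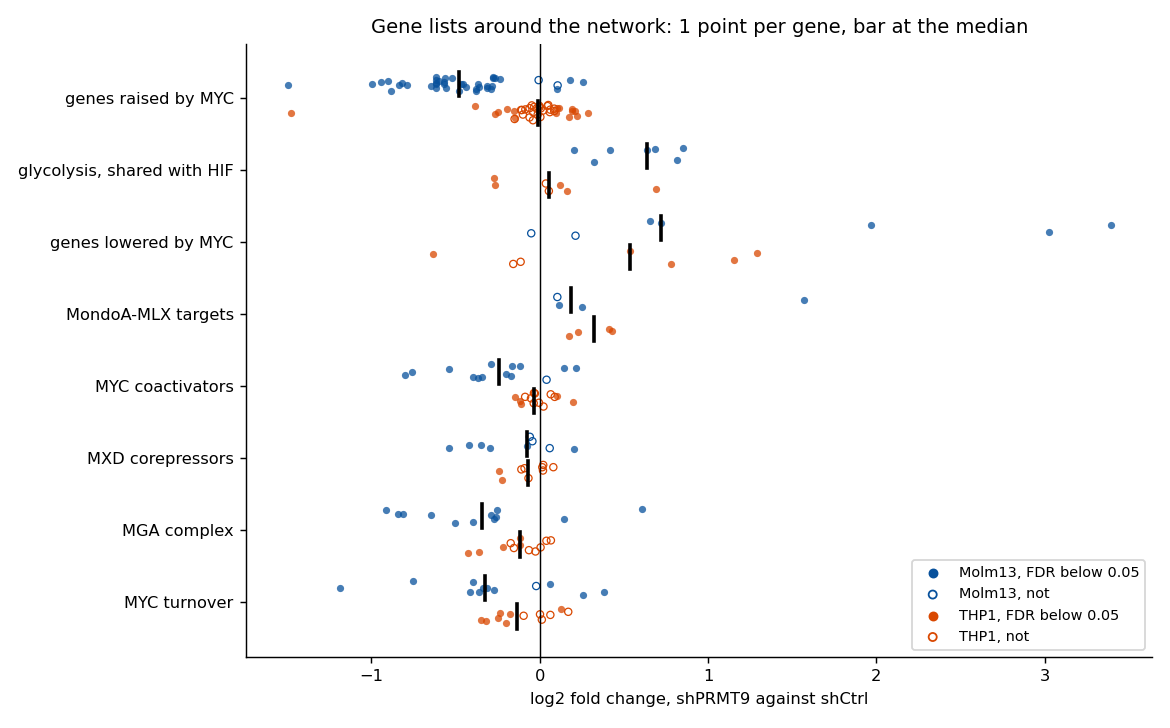
Log2 fold change of shPRMT9 against shCtrl for the genes of 8 lists around the network in Molm13 and THP1, with filled points at an FDR below 0.05, open points otherwise and a bar at each median. Genes raised by MYC have a median of -0.48 in Molm13 and -0.0074 in THP1, and the glycolysis genes 0.64 and 0.05.

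Genes for proteins that work with the network fell for the most part in Molm13. Of 14 MYC coactivator genes, 2 rose and 11 fell in Molm13 (median -0.24), a share of 78.6% lower beside 33.6% of all genes. In THP1, 2 rose and 3 fell (median -0.03), and the 21.4% lower was near the 18.6% of all genes. HCFC1, a cofactor that binds MYC, fell in Molm13 (-0.80 ± 0.031) and rose in THP1 (0.10 ± 0.036), and EP400, a chromatin remodeler, did the same (-0.29 ± 0.034 and 0.20 ± 0.043). ACTL6A, an actin-related remodeler subunit, fell in both (-0.76 ± 0.040 and -0.15 ± 0.043), as did the adaptor WDR5 (-0.39 ± 0.039 and -0.12 ± 0.036). CDK9, the elongation kinase, and the acetyltransferase KAT5 rose in Molm13 (0.21 ± 0.059 and 0.15 ± 0.055) and stood at -0.04 ± 0.057 and -0.09 ± 0.058 in THP1. The difference between the lines passed for 12 of the 14, against 41.4% of all 19288 genes. In the lists above it passed for 6 of 7 glycolysis genes, 4 of 7 genes lowered by MYC and 2 of 4 MondoA targets. In the lists below it passed for 5 of 9 corepressor genes, 8 of 12 MGA complex genes and 6 of 12 regulators of MYC stability.

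Of 9 corepressor genes used by the MXD proteins, 1 rose, 5 fell and 3 were not called in Molm13 (median -0.08), and 2 fell and 7 were not called in THP1 (median -0.07). The shares lower were 55.6% in Molm13 and 22.2% in THP1, beside 33.6% and 18.6% of all genes. The THP1 share was near that of all genes, and a list of 9 is small for such a comparison. SIN3B, a scaffold that MXD proteins bind, rose in Molm13 (0.21 ± 0.054) and stood at 0.02 ± 0.067 in THP1. RBBP4, a histone-binding subunit, fell in both lines (-0.54 ± 0.031 and -0.22 ± 0.034), and so did the deacetylase HDAC2 (-0.30 ± 0.027 and -0.24 ± 0.032). RBBP7 fell in Molm13 (-0.42 ± 0.033) and stood at 0.02 ± 0.036 in THP1.

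The MGA complex, a Polycomb complex known as PRC1.6, was represented by 12 genes, of which WDR5 is also among the coactivators. In Molm13, 2 rose and 10 fell (median -0.34), and in THP1 5 fell and 7 were not called (median -0.12). These were 83.3% and 41.7% lower, beside 33.6% and 18.6% of all genes. E2F6 and L3MBTL2, which help to bring the complex to DNA, fell in Molm13 (-0.91 ± 0.12 and -0.84 ± 0.055) and stood at 0.0052 ± 0.074 and 0.07 ± 0.047 in THP1. TFDP2, a dimer partner of E2F proteins, rose in Molm13 (0.61 ± 0.071) and fell in THP1 (-0.43 ± 0.077). TFDP1, another such partner with higher counts (3945 to 7549, against 373 to 680 for TFDP2), fell in both lines (-0.81 ± 0.028 and -0.12 ± 0.033). RYBP fell in both lines (-0.25 ± 0.063 and -0.36 ± 0.048), and RING1, an E3 ligase, rose in Molm13 (0.15 ± 0.055) and stood at 0.04 ± 0.053 in THP1.

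RNA of regulators of MYC protein stability was also measured, although these libraries hold no measure of MYC protein. The study reports that PRMT9 KD lowered short-lived proteins without a change in their mRNA. It also reports that c-Myc transcripts moved from heavier to lighter polysomes (mRNA with bound ribosomes). Here, MYC RNA itself fell in both lines. Of 12 such genes, 3 rose and 8 fell in Molm13 (median -0.32), and 1 rose and 6 fell in THP1 (median -0.14). The shares lower were 66.7% and 50%, beside the same 33.6% and 18.6%. KIAA1524 (CIP2A), which protects MYC from dephosphorylation, fell in both lines (-1.19 ± 0.050 and -0.20 ± 0.048). The ubiquitin ligase subunit SKP2 fell in both (-0.75 ± 0.039 and -0.17 ± 0.038), and so did GSK3B, a kinase that marks MYC for turnover (-0.31 ± 0.041 and -0.32 ± 0.043). BTRC and USP28, a ubiquitin ligase subunit and a deubiquitinase, rose in Molm13 (0.38 ± 0.060 and 0.26 ± 0.070) and stood at 0.17 ± 0.070 and 0.06 ± 0.099 in THP1. HUWE1, a ubiquitin ligase, rose in both (0.06 ± 0.024 and 0.13 ± 0.029), and PPP2R5A, a phosphatase subunit, fell in THP1 (-0.35 ± 0.049) and stood at -0.02 ± 0.035 in Molm13.

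The genes whose patterns were nearest to those of MYC and MXI1 were found by the root mean square distance between log2 CPM values, each gene centred on its mean over the 8 libraries, among 9014 protein-coding genes with a mean of at least 10 CPM. The pattern of MYC was nearest to those of TMTC4 (0.0606), ANKLE1 (0.0645), CKAP2 (0.0699), AGPAT5 (0.0713) and ETS1 (0.0716), against a median distance of 0.593. The log2 fold changes of these 5 were from -0.26 to -0.50 in Molm13 and from -0.18 to -0.45 in THP1. The pattern of MXI1 was nearest to those of RXFP1 (0.076), CYTH4 (0.125), CCNG2 (0.128), EVL (0.141) and ING4 (0.163), against a median of 1.33. The log2 fold changes of these 5 were between 1.09 and 1.40 in Molm13 and between -0.386 and -1.002 in THP1. The distances describe 8 libraries that differ mostly by line, and they carry no test.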

How the data were processed

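Poly(A) RNA-seq libraries (Kapa mRNA HyperPrep kit) were analysed, 2 per group and 8 in all. The submitters' processing notes name TopHat2 2.0.8, HTSeq 0.11.2, edgeR 3.30.3 and hg38, and the authors deposited raw, whole-number counts for every gene, with 1 table per line. The annotation and the strand setting of the counting are not given in the sources used here. Symbols, exon lengths and coordinates stand only in the Molm13 table, and THP1 rows were matched by gene identifier. All 10 genes have the same start and end in GENCODE release 29, as do 96.32% of the 57388 identifiers found there, so coordinates are given on GRCh38.

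All later steps were run here with edgeR 4.0.16 and DESeq2 1.42.0 (R 4.3.3). Each line was fitted separately (TMM, filterByExpr, quasi-likelihood test, Benjamini-Hochberg over all genes tested, no replicate block), and a fit of all 8 libraries tested the difference between the lines (THP1 minus Molm13). Calls needed an FDR below 0.05. DEGs also needed a fold above 1.5 either way and an RPKM above 1 in at least 1 library. The SE was taken from the F value (size of the log2 fold change over the root of F), 95% intervals use the t distribution with the fit's degrees of freedom, and CPM and RPKM use TMM-scaled totals. With 18720950 to 27356870 counts per library, the biological coefficient of variation was 0.0201 in Molm13 and 0.0247 in THP1. Replicates differed by more than sampling noise (chi-square of 1.35 to 2.17 per gene), and none was counted as a duplicate. The pattern distances used log2(CPM + 0.5).

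The genes of the network and the lists around it were chosen with earlier results of these data known. Named were the 10 genes, PRMT9, all genes of lists of up to 4, in longer lists the 2 largest rises and falls called in each line and genes called in opposite directions, overlapping genes, and the 5 nearest patterns to MYC and to MXI1, the member with the smallest adjusted p for the difference. TFDP1 was added beside TFDP2. Lists were described by counts and medians, without a set test. The tests were tried on simulated counts before use. The alternatives tried were other scalings, filters, DESeq2, a common fit, a replicate block, a fold limit of 2 and leaving out each library. 1 of the B-cell markers is not reported here.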

Additional observations from a re-analysis of the deposited data

Results flagged for a closer look

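The effect of PRMT9 KD differed between the lines, by the edgeR interaction test at an adjusted p below 0.05, for 4 of the 10 network genes. This is near the share over all 19288 genes, of which 41.4% passed. The differences in log2 fold change (THP1 minus Molm13) were -1.98 for MXI1, -1.38 for MXD4, 0.39 for MLX and 0.16 for MGA. MXI1 and MXD4 rose in Molm13 and fell in THP1, MLX fell in both, and MGA fell in Molm13 and was not called in THP1. The lines also came in separate tables with separate library names, so line and handling cannot be told apart in these differences.

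Among the genes around the network, those called in both lines in opposite directions are listed with their differences. Calls in opposite directions from the same counts nearly fix the outcome of this test, so that it adds no separate evidence for them. The differences were 0.92 for HCFC1, 0.50 for EP400, -1.02 for TFDP2, -0.36 for PTMA, 0.90 for NME1, 0.61 for SLC16A1, 0.58 for NOP58, 0.74 for NOLC1, 0.39 for PES1, 0.54 for GART, 0.44 for SHMT2, -1.11 for SLC2A1 and -0.94 for HK2.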

How the results depend on the processing

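The log2 fold changes of MYC, MXD1, MXD4, MXI1 and MLX kept their direction and their call in both lines under all the alternatives tried, and those of MNT in Molm13, as did the differences between the lines of MXD4, MXI1 and MLX. The calls near the threshold did not all hold, and the cause was not tested. With DESeq2 and with no filter, the call was lost for MLXIP (0.14 and 0.12) and MGA (-0.0902 and -0.10) in Molm13, for MXD3 (-0.35 and -0.36) and MNT (-0.23 and -0.25) in THP1, and for the difference of MGA (0.13 and 0.15), which left 1 gene called higher among the differences in both cases. The difference passed the threshold with DESeq2 size factors, library size alone and the filter of CPM above 1 for MXD3 (-0.41, -0.43 and -0.42) and MLXIP (-0.16, -0.18 and -0.17), which gave 4 genes called lower in each case. With library size alone MAX in THP1 was at -0.0085, of the opposite sign and not called. A fold limit of 2 left 1 DEG of the network in Molm13 and 0 in THP1 (edgeR), against 3 and 1 with the limit of 1.5, since MXI1 stood at 0.623-fold of the control in THP1.

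Leaving out 1 library at a time gave ranges of -0.063 to 0.19 for MXD3, 0.082 to 0.20 for MLXIP and -0.14 to -0.046 for MGA in Molm13, and of -0.018 to 0.054 for MAX, -0.45 to -0.25 for MXD3, -0.35 to -0.12 for MNT and -0.044 to 0.025 for MLXIP in THP1. Where an arm was left with 1 library, that library was assumed to vary like the others. For the differences the ranges were -0.0078 to 0.045 for MYC, -0.55 to -0.30 for MXD3, 0.024 to 0.26 for MNT, -0.23 to -0.12 for MLXIP and 0.077 to 0.17 for MGA, with 1 to 3 genes called higher and 2 to 4 called lower.

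Genes called over the whole table in THP1 numbered 6139, and 3796 with no filter, where 32584 genes were tested in place of 16294. DESeq2 called 8318 genes in Molm13 (11018 with edgeR) and 4246 in THP1. Library size alone moved the split in THP1 from 3109 higher and 3030 lower to 2778 and 3500, with a median of all genes of -0.03. The replicate numbers share only a label: the correlation of same-numbered deviations was -0.0822 in Molm13 and -0.01 in THP1. With the replicate block, 5440 genes were higher and 5454 lower in Molm13, MXI1 stood at 1.31 there and at -0.68 in THP1, and the block changed no call of a network gene. The numbers of genes called with the block were 6064 in THP1 and 7731 for the difference. Of 4348 differences called higher and 3641 lower, library size alone gave 3981 and 4022. MXD3, the least abundant of the network genes, had the widest standard errors, so that small changes in it were not detectable at this depth.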
